A study of Mus musculus with 6 samples.

Results

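A set of 10 genes that are known from the fetal liver or from liver tumors was followed in livers with and without hepatocyte Nek7: Afp, H19, Igf2, Gpc3, Dlk1, Igf2bp3, Scd2, Golm1, Ly6d and Tff3. The genes were chosen by name, with earlier results of these data known, and their rows were read from the gene table by symbol. Of the 10 genes, 9 were read from the table of 17975 genes, and H19 was not analysed here. Of these 9, 8 were among the 13805 genes with enough counts for a test, and Dlk1 was not.

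RNA from whole liver of 6 mice was sequenced in bulk, with 3 mice in each group and 1 liver per mouse. The WT group (titled Ctrl) is wild type, and the Hom group (NEK7fl/fl-Alb-Cre+, titled Homo) is homozygous for the deletion of Nek7 in hepatocytes. Nek7 encodes a serine/threonine kinase of the mitotic NIMA-related family. The Cre recombinase is driven by the albumin promoter, so that other liver cells should keep Nek7. The study states an age range in weeks for its mice as a whole, and ages in months for the liver phenotype of knockout mice. It also states the use of males and females among knockout mice, and controls matched for sex and age. The age and sex of each of these 6 mice were not used here, and whether the WT mice carried the floxed allele or Cre is not given in the sources used here. In the livers labelled Hom, Nek7 was at 14.5, 18.1 and 16.7 CPM (read counts divided by library size and scaled with edgeR's TMM factors), against 62.9, 69.1 and 63.7 CPM in WT livers.

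The 6 livers held 19349418 to 19730236 estimated counts each. Several livers stood apart from others of their group. Hom replicate 1 had 0 counts of Ddx3y and 0 of Kdm5d, both on the Y chromosome, whereas the other 5 livers had 630 to 1125 and 243 to 382 counts. It had 4 counts of Eif2s3y (582 to 1017 in the others) and 149 of Uty (464 to 725), also Y-linked genes. The groups were thus not matched in Y-linked counts, and the part of this in the results was not tested. This liver also differed more from Hom replicates 2 and 3 (chi-square per degree of freedom over genes of 85.3 and 79.9) than these differed from each other (26.55). In the same measure WT replicate 1 differed more from WT replicates 2 and 3 (143 and 163) than these differed from each other (23.8). Its summed markers of macrophages (996 TPM, against 364 and 355), of B and plasma cells (33.4 TPM, against 8.06 and 6.56) and of erythroid cells (4092 TPM, against 1330 and 1025) were also the highest of the WT livers. WT replicate 3 had a Ly6d level far above the other WT livers, and its values are given with Ly6d. Whole tissue was measured, so that a change in the number of cells of a type cannot be told apart from a change of RNA per cell.

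Fetal hepatocytes make a set of products that are switched off after birth, among them alpha-fetoprotein and the RNAs of the imprinted Igf2-H19 locus. In the mouse this postnatal repression is known to need the zinc-finger proteins Zhx2 and Zbtb20. Several of these genes can be found again in regenerating or diseased liver and in hepatocellular carcinoma, where AFP, glypican 3 and the Golgi protein GOLM1 are used or studied as tumor markers. Of the other genes, Dlk1 and Igf2bp3 are also known from fetal tissue. Ly6d and Tff3 are better known from stratified and mucus-producing epithelia, and Scd2 is the stearoyl-CoA desaturase of brain and of the developing liver and skin.

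The promoters of 3 genes named in the results are shown as background, and no result depends on them. Golm1 had the largest difference among the members with a promoter in the table used, and Afp and Alb are neighbours of a single gene family that are set side by side below. Each is 300 bases of the RefSeq reference (GRCm38.p6), from 250 bases before the start of the gene to 50 bases after it, written 5′ to 3′ on the strand of the gene. Golm1 lies at chr13:59675735-59676034 on the minus strand, Afp at chr5:90490464-90490763 on the plus strand and Alb at chr5:90460620-90460919 on the plus strand. Capitals mark matches to 3 short motifs on either strand: the TATA box (TATAAA), the CCAAT box (CCAAT) and the GC box (GGGCGG).
Golm1: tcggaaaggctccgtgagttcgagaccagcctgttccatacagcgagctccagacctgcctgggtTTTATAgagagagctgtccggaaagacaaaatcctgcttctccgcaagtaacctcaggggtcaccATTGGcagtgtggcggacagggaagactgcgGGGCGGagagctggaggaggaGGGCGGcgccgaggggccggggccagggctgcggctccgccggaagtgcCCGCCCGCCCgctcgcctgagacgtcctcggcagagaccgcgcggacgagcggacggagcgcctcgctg
Afp: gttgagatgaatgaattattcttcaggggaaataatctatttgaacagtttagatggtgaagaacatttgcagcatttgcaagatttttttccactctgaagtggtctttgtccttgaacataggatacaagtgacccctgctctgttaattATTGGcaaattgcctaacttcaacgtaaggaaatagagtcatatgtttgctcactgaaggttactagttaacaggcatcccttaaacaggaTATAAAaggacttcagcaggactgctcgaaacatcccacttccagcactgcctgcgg
Alb: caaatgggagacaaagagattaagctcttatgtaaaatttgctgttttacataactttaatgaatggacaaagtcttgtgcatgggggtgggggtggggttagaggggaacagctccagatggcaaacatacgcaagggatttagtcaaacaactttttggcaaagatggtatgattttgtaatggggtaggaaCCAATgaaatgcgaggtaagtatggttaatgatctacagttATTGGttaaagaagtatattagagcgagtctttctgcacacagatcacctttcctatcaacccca

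The Golm1 window held 4 GC boxes, of which the 2 nearest the start overlap, and it held 1 CCAAT box and 1 TATA match at position −185 from the RefSeq start. The Afp window held 1 TATA box, at position −7, and 1 CCAAT box, at position −98, both from the RefSeq start. The GENCODE start of Afp (90490737) lies downstream of that RefSeq start, so that these positions depend on the annotation. The Alb window held 2 CCAAT boxes, at positions −56 and −15, with no match to the TATA letters searched. Of all 32851 promoter windows of this length, 13.6% held a TATA match, 37.4% a CCAAT match and 35.7% a GC box. These matches are descriptions of the letters, and no binding was measured. Of the 10 genes, 6 were matched in the promoter table (Afp, Igf2, Gpc3, Dlk1, Igf2bp3 and Golm1), and H19, Scd2, Ly6d and Tff3 were not. Igf2 had several starts there, and counts per gene do not say which of them was in use.

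Of the 8 genes tested, 5 passed the threshold, an adjusted p under 0.05, and all 5 were higher in Hom livers (Igf2, Scd2, Golm1, Ly6d and Tff3; edgeR quasi-likelihood test, p-values adjusted over 13805 genes by the Benjamini-Hochberg method), and Afp, Igf2bp3 and Gpc3 did not pass. No member was lower: the count was 0 with edgeR, 0 at an unadjusted p under 0.05 and 0 with DESeq2. Among all genes tested, 21.5% were higher and 20.1% were lower. The median log2 fold change was 1.76 over the 8 members and −0.0018 over all genes tested. Because the members were chosen with earlier results of these data known, these figures describe the set and do not test it. In 6 of the 8 (the 5 called genes and Afp) all 3 Hom livers lay above all 3 WT livers, which was so for 28.7% of all genes tested; the reverse order was seen for 27.0%. Without WT replicate 3 and Hom replicate 1, 6 members were higher, Afp being the one added. The count was 4 without WT replicate 1, which removed Ly6d, and fell to 3 (Scd2, Golm1 and Tff3) when WT replicate 2, Hom replicate 2 or Hom replicate 3 was left out.

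**Figure D1:**
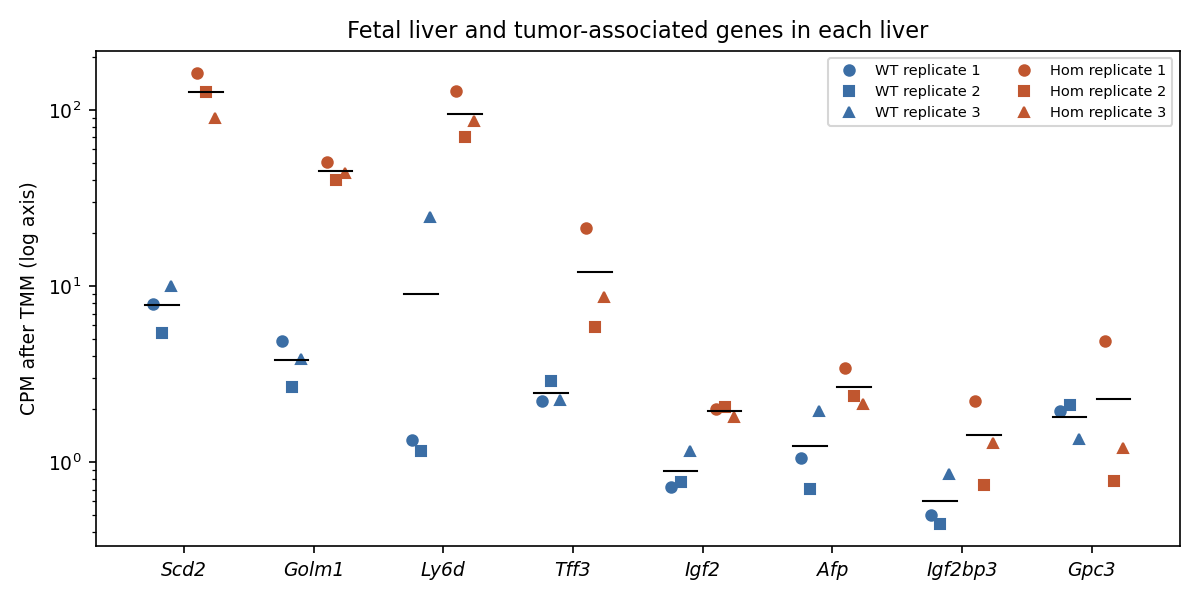
CPM of the 8 tested genes in each of the 6 livers (y axis, TMM-scaled CPM, log axis), with WT livers in blue, Hom livers in orange, marker shapes for replicates and black bars for group means. For Scd2 and for Golm1 every Hom liver lies far above every WT liver, Ly6d has 1 WT liver at 24.6 CPM, and the groups overlap for Gpc3 and Igf2bp3.

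Serum markers of hepatocellular carcinoma are encoded by Afp and Golm1. Golm1 encodes a Golgi membrane protein, known as GP73, that is low in normal hepatocytes and is shed into the blood in liver disease. The gene lies on chromosome 13 from 59634626 to 59675811 (GRCm38, minus strand). Golm1 had 88, 42 and 63 counts in WT replicates 1, 2 and 3 and 1086, 966 and 1022 counts in Hom replicates 1, 2 and 3. The Hom livers were close to each other and all far above the WT livers. The mean rose from 3.83 ± 1.11 to 44.9 ± 5.47 CPM (SD, n = 3), or 11.7-fold. Its log2 fold change was 3.54 (SE 0.21, adjusted p = 1.93e-04, edgeR), rank 175 from the highest among the genes tested. In TPM, which also corrects for gene length, Golm1 moved from rank 10513 in WT livers to rank 3755 in Hom livers. Golm1 stayed within 3.34 to 3.76 on the log2 scale when each liver was left out in turn.

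Afp encodes alpha-fetoprotein, the main serum protein of the fetus, and lies on chromosome 5 from 90490737 to 90508907 (plus strand). Afp had 19, 11 and 32 counts in WT livers and 74, 58 and 50 counts in Hom livers. The groups did not overlap, but all 6 values were low. Its level was 1.24 ± 0.65 CPM in WT and 2.67 ± 0.69 CPM in Hom livers (SD, n = 3), a log2 fold change of 1.09 (SE 0.41) that did not pass the threshold (adjusted p = 0.0674, edgeR). The adjusted p fell to 0.0228 without WT replicate 3, the WT liver with the most Afp, and to 0.0470 with DESeq2, and it ranged from 0.0169 to 0.171 over all alternatives. In TPM, Afp stood at rank 10823 of 17975 genes in Hom livers, against rank 11543 in WT livers.

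Alb, which encodes albumin and lies in the same gene cluster, was lower in Hom livers, with a log2 fold change of −1.26 (SE 0.27, adjusted p = 0.00991, edgeR). Alb was at 100440, 81544 and 64880 TPM in WT livers and at 56549, 46173 and 53663 TPM in Hom livers. On the log2 scale the ratio of Afp to Alb TPM was −16.9, −17.4 and −15.6 in WT livers and −14.0, −14.0 and −14.4 in Hom livers. The ratio was therefore higher in every Hom liver, although Afp stayed several orders of magnitude below Alb. The group means differed by 2.47 (−16.6 ± 0.94 against −14.2 ± 0.25, SD, n = 3; p = 0.1 in a two-sided exact permutation test over livers, a value that 3 against 3 cannot undercut). Afm, the afamin gene of the same cluster, was lower as well (log2 fold change −1.75, SE 0.11).

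Next, the imprinted genes of the set were compared. Igf2 encodes insulin-like growth factor 2, a growth factor of the fetus that is expressed from the paternal allele and shut down in adult mouse liver. It lies on chromosome 7 from 142650766 to 142666816 (minus strand). Igf2 had 13, 12 and 19 counts in WT livers and 43, 50 and 42 counts in Hom livers. All Hom livers lay above all WT livers and were within 1.14-fold of each other. The mean rose from 0.888 ± 0.243 to 1.96 ± 0.132 CPM (SD, n = 3; log2 fold change 1.14, SE 0.28, adjusted p = 0.0179, edgeR). The call was lost when WT replicate 2, Hom replicate 2 or Hom replicate 3 was left out, and over all alternatives the adjusted p ranged from 0.00483 to 0.0745. In GENCODE M21, 76.0% of the 50-base stretches of the longest Igf2 transcript also occur in other genes, mostly in the overlapping gene Gm49394. Whether the annotation behind the counts held Gm49394 is not known, so a split of reads between them could not be checked.

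Dlk1, an imprinted gene for a Notch-related membrane protein of hepatoblasts, had 1, 0 and 5 counts in WT livers and 0, 2 and 1 counts in Hom livers. These counts were too few for a test, and no difference was detectable at this depth. H19, the noncoding RNA next to Igf2, was not analysed here.

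The imprinted partners of these genes moved in both directions. Of 22 imprinted genes listed, 16 were tested, 5 were higher and 1 was lower, with a median log2 fold change of 0.36. The shares among all genes tested were 21.5% higher and 20.1% lower. Phlda2, a growth-restraining gene of the placenta, rose by 2.94 on the log2 scale, Sgce (epsilon-sarcoglycan) by 2.18, Grb10, an adaptor that restrains insulin receptor signaling, by 1.26, Plagl1, a zinc-finger regulator, by 1.12 and Impact by 0.74. Gnas, the gene of the stimulatory G protein alpha subunit, fell by 0.58. Igf2r, the receptor that clears IGF2, was at 47.4 ± 4.14 CPM in WT and 47.2 ± 4.49 CPM in Hom livers (SD, n = 3; adjusted p = 0.975, edgeR). Meg3, listed with them as the noncoding partner of Dlk1, was not analysed here. With library size alone as scaling, 9 imprinted genes were higher.

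Among 14 tested genes for IGF ligands, receptors, binding proteins and adaptors, 2 were higher and 5 were lower (median log2 fold change −0.64). For comparison, 21.5% of all genes tested were higher and 20.1% were lower. Igfbp7, an IGF-binding-protein-related matrix protein, and Igf1r, the receptor that transmits the signals of both IGFs, were higher by 1.36 and 1.06 on the log2 scale. The lower genes were Igfbp2 (−1.61), Igfals (−1.47), Igfbp3 (−1.18), Irs1 (−0.79) and Igf1 (−0.69). Igf1 is the ligand of the adult liver. It was at 269 to 330 CPM in Hom livers and at 444 to 539 CPM in WT livers.

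Gpc3 and Ly6d encode proteins that are anchored to the cell surface by a lipid. Gpc3 encodes glypican 3, a heparan sulfate proteoglycan that is used as a tissue marker of hepatocellular carcinoma, and lies on the X chromosome from 52272426 to 52613950 (minus strand). Gpc3 had 35, 33 and 22 counts in WT livers and 105, 19 and 28 counts in Hom livers. Only Hom replicate 1 was above the WT livers, and the other 2 Hom livers lay below all of them in CPM. The log2 fold change was 0.34 (SE 0.67, adjusted p = 0.712, edgeR), and it turned to −0.86 without Hom replicate 1. Among the other glypicans, Gpc2 was higher (7, 2 and 1 counts in WT, 18, 40 and 27 in Hom livers), whereas Gpc1 fell by 2.33 and Gpc4 by 0.49 on the log2 scale.

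Ly6d encodes a small protein of the Ly6 family that is found on keratinocytes and on early B-lineage cells, and lies on chromosome 15 from 74762056 to 74763620 (minus strand). Ly6d had 24, 18 and 401 counts in WT livers and 2742, 1705 and 2010 counts in Hom livers. The Hom livers were all above WT replicate 3, which itself was 21.3-fold above the lowest WT liver. The mean was 9.04 ± 13.5 CPM in WT and 95.0 ± 29.7 CPM in Hom livers (SD, n = 3), with a log2 fold change of 3.40 (SE 1.03, adjusted p = 0.0358, edgeR). Without WT replicate 3 the log2 fold change was 6.23 (adjusted p = 8.56e-04). When any of the other 5 livers was left out in its place, the call was lost, with log2 fold changes from 2.87 to 3.57 and adjusted p-values of up to 0.0843. Per length, Ly6d was the most abundant member in Hom livers, with a mean of 323 TPM and rank 419 of all genes, against rank 3771 in WT livers.

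Other epithelial genes were also high in WT replicate 3. Of the cholangiocyte list, the following were picked after their values were seen. Sprr1a, a cornified envelope gene, was at 23.2 CPM in this liver and at 1.95 and 3.78 CPM in WT replicates 1 and 2. Cldn4, a tight junction gene, was at 1.97 CPM there, against 0.335 and 0.385 CPM. The defining cholangiocyte marker Krt19 was lowest in that same liver (0.922 CPM, against 2.46 and 2.24), and Epcam lay between the other WT livers (2.33 CPM, against 2.85 and 1.28). The summed level of the 15 listed cholangiocyte markers was 103 TPM in WT replicate 3 and 107 and 77.8 TPM in WT replicates 1 and 2. Sprr1a alone gave 42.5 TPM of the sum in WT replicate 3, against 4.30 and 6.85 TPM in WT replicates 1 and 2. The part of cholangiocytes in the Ly6d value was not tested. Among the Ly6 neighbours, Ly6e rose 4.35-fold and Ly6i 2.86-fold in mean CPM.

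**Figure D2:**
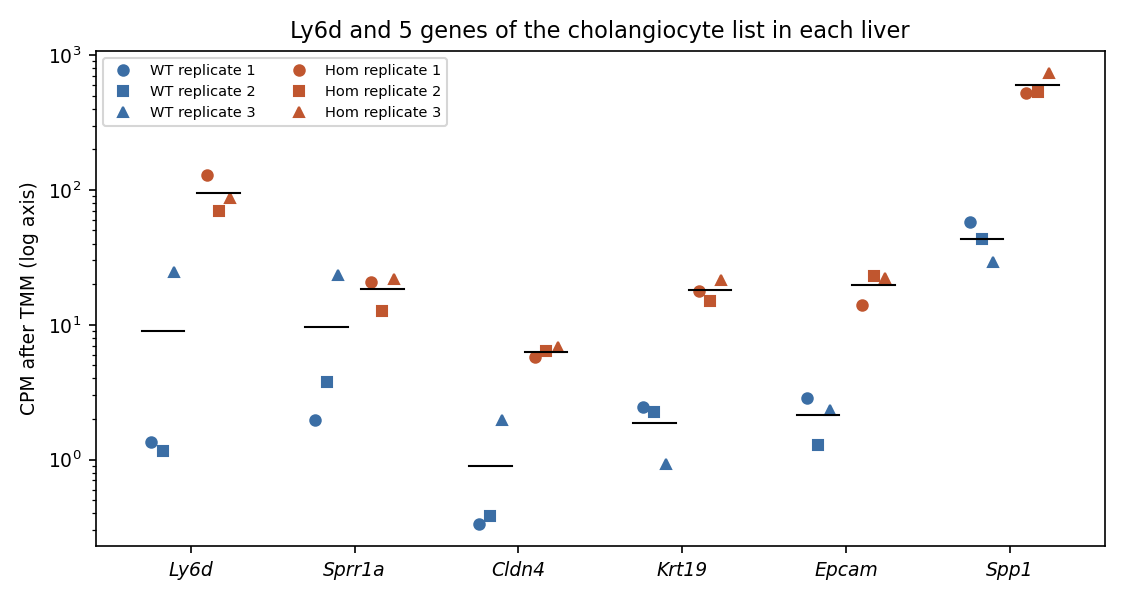
CPM of Ly6d and of 5 genes from the cholangiocyte list in each liver (y axis, TMM-scaled CPM, log axis), with WT livers in blue, Hom livers in orange and black bars for means. WT replicate 3 (blue triangle) is high for Ly6d, Sprr1a and Cldn4 among the WT livers, and is the lowest of all livers for Krt19 and Spp1.

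Igf2bp3 encodes an RNA-binding protein that binds Igf2 transcripts and is made in fetal tissues and tumors. It lies on chromosome 6 from 49085223 to 49214957 (minus strand). Igf2bp3 had 9, 7 and 14 counts in WT livers and 48, 18 and 30 counts in Hom livers. Hom replicate 2 (0.742 CPM) lay under WT replicate 3 (0.860 CPM), so that the groups overlapped. The log2 fold change was 1.22 (SE 0.50) and did not pass the threshold (adjusted p = 0.0865, edgeR). Its paralog Igf2bp2, the family member of adult tissues, was at 2.10 ± 0.347 CPM in WT and 2.73 ± 0.818 CPM in Hom livers (SD, n = 3; adjusted p = 0.331, edgeR). The other fetal paralog, Igf2bp1, had 0 counts in each WT liver and 0, 0 and 1 counts in Hom livers, and Lin28b, a fetal regulator of let-7 microRNAs, had at most 4 counts in any liver.

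Scd2 encodes a stearoyl-CoA desaturase, which makes monounsaturated fatty acids, and lies on chromosome 19 from 44293674 to 44306864 (plus strand). In adult mouse liver the main desaturase is its neighbour Scd1. Scd2 had 141, 85 and 163 counts in WT livers and 3465, 3069 and 2094 counts in Hom livers. The lowest Hom liver was far above the highest WT liver. The mean rose from 7.78 ± 2.28 to 126 ± 35.7 CPM (SD, n = 3), or 16.2-fold, with a log2 fold change of 4.02 (SE 0.30, adjusted p = 3.38e-04, edgeR). This was the largest fitted difference of the 8 members in the main fit, at rank 114 among all genes tested. Ly6d had a larger one without WT replicate 3 (6.23, against 4.23 for Scd2). The same held without both WT replicate 3 and Hom replicate 1, and with the replicate number as a block (4.37, against 4.01).

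Scd1 did not pass the test (log2 fold change 0.12, SE 0.36, adjusted p = 0.806, edgeR). It was at 3487, 1649 and 1960 TPM in WT livers and at 2167, 5950 and 3722 TPM in Hom livers. Scd2 therefore remained a small part of the pair. Its share of the summed Scd1 and Scd2 TPM was 0.0679%, 0.0824% and 0.128% in WT livers and 2.74%, 0.914% and 1.01% in Hom livers. The share was higher in every Hom liver than in any WT liver, by 1.46 percentage points on average (0.0928% ± 0.0313 against 1.55% ± 1.03, SD, n = 3; p = 0.1, two-sided exact permutation test, again the lowest value this design allows). Without Hom replicate 1, which had the lowest Scd1 of the Hom livers, the difference was 0.867 points. Scd2 and Scd1 share few long stretches (4.01% of the 50-base stretches of Scd2), and Scd4, another paralog, had 5 to 14 counts in each liver.

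**Figure D3:**
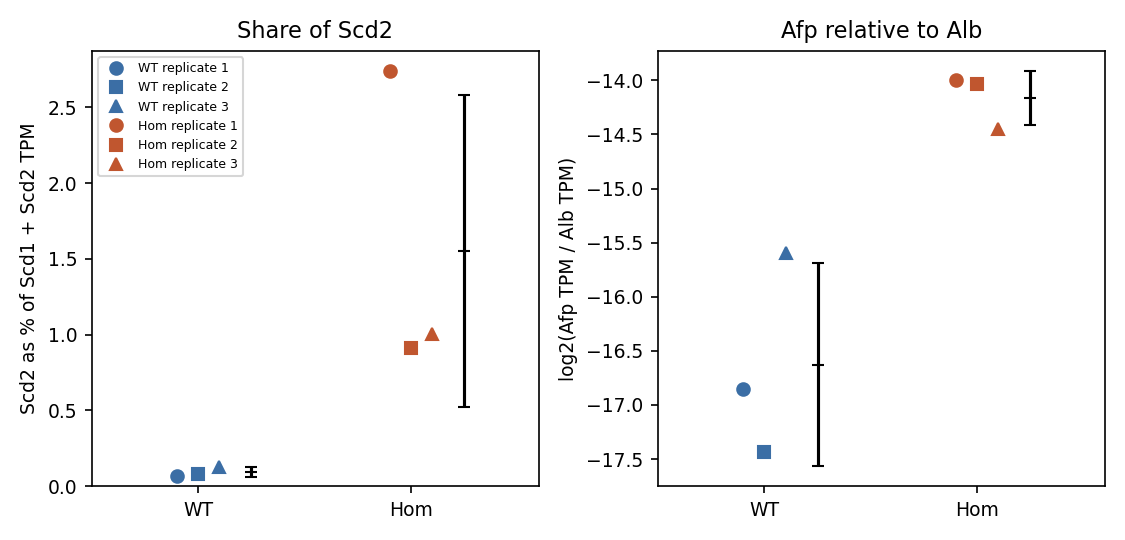
Left, Scd2 TPM as a percentage of the summed Scd1 and Scd2 TPM; right, log2 of Afp TPM over Alb TPM, with each point a liver and black bars for mean and SD (n = 3). In both panels every Hom liver lies above every WT liver, and in the left panel Hom replicate 1 (2.74%) is far above the other Hom livers.

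Tff3 encodes a trefoil peptide that goblet cells and other mucus-producing epithelia secrete, and lies on chromosome 17 from 31125306 to 31129646 (minus strand). Tff3 had 40, 45 and 37 counts in WT livers and 461, 143 and 202 counts in Hom livers. The WT livers were close to each other, whereas the Hom livers spread over 3.65-fold with replicate 1 at the top. The mean rose from 2.46 ± 0.366 to 12.04 ± 8.33 CPM (SD, n = 3), or 4.89-fold (log2 fold change 2.29, SE 0.49, adjusted p = 0.0108, edgeR). Without Hom replicate 1 the log2 fold change was 1.57. Tff2, a trefoil peptide of the stomach that lies beside Tff3, was higher too, with 1, 0 and 0 counts in WT and 23, 34 and 35 counts in Hom livers.

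**Figure D4:**
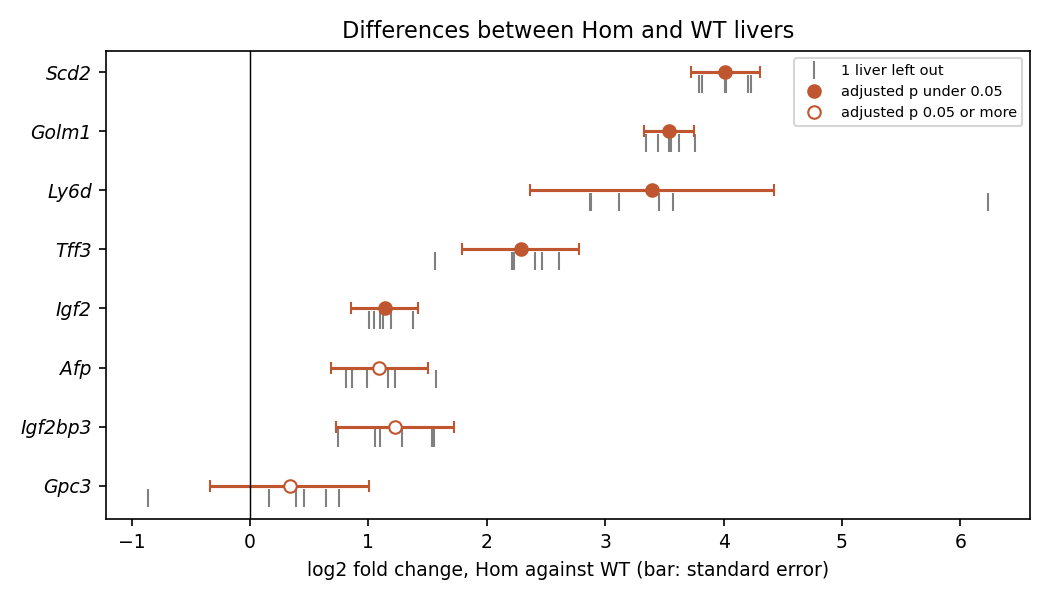
Log2 fold change of each tested gene in Hom against WT livers (x axis; circles with standard error; filled where the adjusted p was under 0.05), with grey ticks for the values when 1 liver was left out. The ticks of Scd2 and Golm1 stay close to the circle, that of Ly6d reaches 6.23 without WT replicate 3, and that of Gpc3 falls to −0.86 without Hom replicate 1.

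The members thus differed in how far they were from the WT level. The order of the log2 fold changes in the main fit was Scd2, Golm1, Ly6d, Tff3, Igf2bp3, Igf2, Afp and Gpc3. Neighbours in this order lay within 1 standard error of each other, except Scd2 and Golm1, Ly6d and Tff3, Tff3 and Igf2bp3, and Afp and Gpc3, and these gaps were not tested. The order changed in some alternatives. Ly6d came first without WT replicate 3, and Igf2bp3 (0.74) fell below Igf2 (1.12) and Afp (0.86) without Hom replicate 1. Golm1, Scd2 and Tff3 kept their call in all 13 alternative fits. Hom replicate 1 was the highest Hom liver for 7 of the 8 members, all but Igf2, and WT replicate 3 was the highest WT liver for 5 of the 8.

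The genes known to control Afp and H19 in liver were then examined. Of 18 regulators, all tested, 4 were higher and 3 were lower in Hom livers (median log2 fold change −0.20). These counts were near the shares among all genes tested (21.5% higher and 20.1% lower), so they are no trait of the list. Zhx2, the repressor named above, was at 26.0 ± 3.14 CPM in WT and 22.3 ± 0.351 CPM in Hom livers (SD, n = 3; adjusted p = 0.128, edgeR). Zbtb20 was at 41.3 ± 5.09 CPM in WT and 36.5 ± 4.63 CPM in Hom livers (adjusted p = 0.295, edgeR; n = 3). The lower genes were Foxa1, a pioneer factor of endoderm (−0.98), Zhx3, a relative of Zhx2 (−0.76), and Hnf4a, a main hepatocyte regulator (−0.69). Trp53 (0.55), the nuclear receptor gene Nr2f2 (0.50) and Zhx1 (0.27) were among the higher genes. None of the 7 regulators past the threshold changed by 1 or more on the log2 scale. With library size alone as scaling, which moves the median of all genes to 0.45, 0 regulators were lower and 5 were higher, and 7 were lower without WT replicate 1.

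A wider list of oncofetal and progenitor genes, also chosen with earlier results of these data known, held 30 genes. Of the 24 tested, 16 were higher and 2 were lower, with a median log2 fold change of 2.72. Cdh17, a cadherin of fetal liver and intestine, had 0 counts in every WT liver and 60, 15 and 52 counts in Hom livers, at least 10.4-fold higher when WT livers are set to a floor of 3 counts each. Spink1, a trypsin inhibitor found in liver tumors, had 2, 0 and 0 counts in WT and 99, 51 and 109 counts in Hom livers. The progenitor marker Prom1 (26, 24 and 18 against 1126, 638 and 794 counts) and the tetraspanin Tspan8 (32, 12 and 12 against 523, 613 and 666 counts) were higher in every Hom liver. Igdcc4, also called Nope, had 4, 1 and 8 counts in WT and 663, 92 and 115 counts in Hom livers, with replicate 1 far above the rest.

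The lower genes of this list were Glul, the glutamine synthetase of pericentral hepatocytes (−1.06 on the log2 scale), and Tert, the telomerase reverse transcriptase (−0.56). Setting Cdh17 to its bound left the median of the list at 2.72, which was fixed in advance because both of its values lie above the median. Genes with few counts in WT livers, such as Cdh17 and Spink1, entered the test through the Hom livers and could hardly be called lower. Of the 30 genes, 6 are also in the cholangiocyte list. Among the 18 tested genes that are not, 11 were higher and 2 were lower, with a median of 1.97. When each liver had to hold 10 counts or more, 10 genes of the whole list were higher, but fewer genes could be tested.

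**Figure D5:**
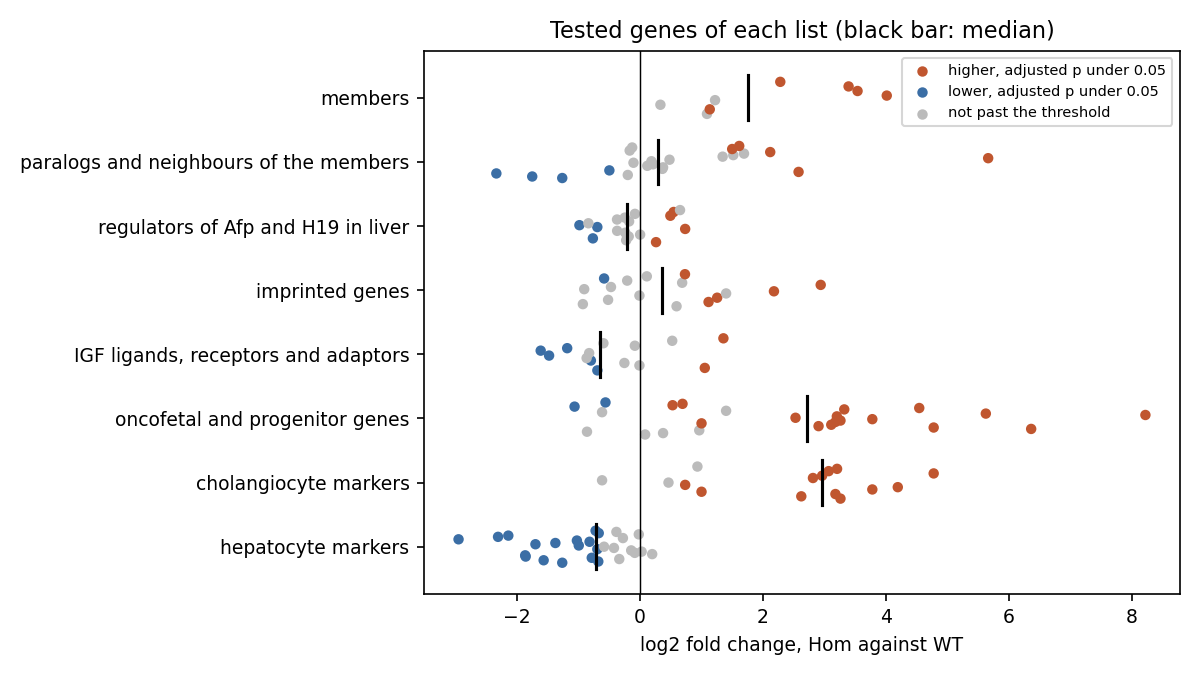
Log2 fold changes in Hom against WT livers (x axis) of the tested genes in 8 lists, with a point for each gene, orange for higher, blue for lower and grey for genes past no threshold, and black bars for medians. The members, the oncofetal list and the cholangiocyte markers lie mostly to the right of 0, the regulators lie around 0 and the hepatocyte markers lie mostly to the left.

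Markers of other cell types also differed between the groups, in both directions. Over all genes tested, 21.5% were higher and 20.1% were lower. Hom replicate 1 had the lowest cholangiocyte sum of the Hom livers (985 TPM, against 1155 and 1494), although most members were highest in it. Of 15 cholangiocyte markers tested, 12 were higher, and their summed level was 77.8 to 107 TPM in WT and 985 to 1494 TPM in Hom livers. Krt19 (3.26) and Epcam (3.18) were among them, with the log2 fold changes in parentheses. Of 15 stellate and fibroblast markers, 10 were higher and 1 was lower (Col1a1, 3.32). Of 21 proliferation genes, 16 were higher (Mki67, 2.04). Of 27 hepatocyte markers, 17 were lower, Alb among them, and their summed level was 177613 to 232141 TPM in WT and 137650 to 161673 TPM in Hom livers. The counts in the opposite direction were 0 for the cholangiocyte, proliferation and hepatocyte lists, with edgeR, at an unadjusted p under 0.05 and with DESeq2.

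Markers of endothelial and blood cells were counted in the same way. Of 12 endothelial markers, 1 was higher and 6 were lower, of 16 macrophage markers 4 were higher and 2 were lower, of 6 B cell and plasma cell markers 1 was higher, and of 9 erythroid markers 2 were lower. The shares among all genes tested were 21.5% higher and 20.1% lower, and the macrophage counts were near them. The B cell and erythroid lists are too short to be set apart from these shares. The summed level was 126 to 212 TPM in WT and 131 to 150 TPM in Hom livers for the endothelial list, and 355 to 996 against 1019 to 1595 TPM for the macrophage list. It was 6.56 to 33.4 against 53.0 to 115 TPM for the B and plasma cell list, and 1025 to 4092 against 2819 to 8010 TPM for the erythroid list, where the groups overlap. Of the genes past the threshold, the following were picked after their values were seen. In the endothelial list the sinusoidal genes Clec4g (−2.13) and Kdr (−1.48) were lower and Vwf (1.59) was higher on the log2 scale. In the macrophage list Trem2 (3.31), Ccr2 (3.19), Lyz2 (1.30) and Cd68 (0.78) were higher, whereas the Kupffer cell genes Timd4 (−2.38) and Clec4f (−1.59) were lower. Jchain, a plasma cell gene, was higher (2.17), and Alas2 (−1.67) and Klf1 (−0.90) were the lower erythroid genes. The defining marker chosen for each list did not pass the test: Pecam1 (adjusted p = 0.586), Adgre1 (adjusted p = 0.213), Cd79a (adjusted p = 0.296) and Hba-a1 (adjusted p = 0.367, all from edgeR). Cd79a was at 23 to 54 counts in Hom livers and at 36, 4 and 8 counts in WT livers. Which cells held the RNA of the members was not measured in bulk tissue, and the part of these cell types in the results was not tested.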

How the data were processed

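RNA was taken from whole liver of 3 WT and 3 Hom mice and sequenced on the DNBSEQ platform. The submitters' processing notes name HISAT2 2.0.4, Bowtie2 2.2.5, RSEM 1.2.12 and the mm9 build; the annotation, read length and strandedness are not given in the sources used here. The authors deposited estimated counts per gene (unscaled), and FPKM and TPM values, which the authors scaled by gene length and depth. Mean columns were not used, since for all 17975 genes the mean named for WT equals the Hom mean (tolerance 0.01; for 214 of them it equals the WT mean too).

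Estimated counts were rounded and tested with edgeR 4.0.16 (R 4.3.3; filterByExpr, TMM, glmQLFit and glmQLFTest, Benjamini-Hochberg adjustment, threshold 0.05, no minimum fold change). CPM values use TMM-scaled totals, and TPM was used to compare levels between genes. The standard error was derived from the fold change and its F statistic. P-values measure the spread between 3 livers per group. The procedure was tested on simulated data.

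The members and all gene lists were chosen with earlier results of these data known. Named were all members, every regulator and paralog or neighbour past the threshold (Lsp1, beside Igf2, rose by 1.62 on the log2 scale; the others are in the results; 1 regulator is not reported here), up to 5 genes in each direction of the other lists, and defining cell markers. Positions are from GENCODE M21 (GRCm38), promoters from RefSeq (GRCm38.p6); the files hold no coordinates. Alternatives were DESeq2 1.42.0, other scalings and filters, a minimum fold change, the replicate number as a block and each liver left out; leaving out both WT replicate 3 and Hom replicate 1 was added after seeing the data.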

Additional observations from a re-analysis of the deposited data

How the results depend on the processing

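Of 103 values of the tested members under alternative settings, 85 kept their direction and side of the threshold, 6 gained a call, 9 lost one and 3 reversed. The reversals were all of Gpc3: −0.035 with the replicate number as a block, −1.03 without both WT replicate 3 and Hom replicate 1, and a range from −0.86 to 0.75 when 1 liver was left out. Without 1 liver the number of members higher ranged from 3 to 6 and that of regulators lower from 2 to 7. A minimum change of 1 on the log2 scale in either direction left 0 regulators higher and 0 lower. Library size alone gave 0 regulators lower and 9 imprinted genes higher, and at least 10 counts in every liver gave 10 oncofetal genes higher. The causes were not tested, apart from the smaller number of genes tested (12223) in the last case. Afp gained a call with DESeq2, with library size alone, with the filter at 10 counts, without WT replicate 3 and without both doubted livers. Igf2bp3 gained a call with library size alone (1.65).

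Over all genes, 2974 were higher and 2780 lower. The counts were 6574 and 642 with library size alone, 3477 and 2060 with upper-quartile factors, 1825 and 575 with that minimum change, 2023 and 1829 without Hom replicate 2, and 1986 and 1767 without Hom replicate 3. The replicate numbers did not pair the livers: the deviations of same-numbered livers correlated at −0.050, −0.031 and 0.0073, and 0 of 3 WT livers correlated best with their own number. With the replicate block 2383 genes were higher and 2214 lower, and 4 members were higher, Igf2 having an adjusted p of 0.0569 with edgeR. Depth limits Dlk1, with at most 5 counts in a liver, and the members under about 50 counts.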

Other observations

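Other genes that are known from the fetal liver stayed near the detection limit in both groups and were too low for a test. Lin28a, an RNA-binding protein gene of stem cells, had 6, 0 and 0 counts in WT livers and 4, 4 and 0 counts in Hom livers. Hmga2, a chromatin protein gene of embryonic tissue, had 4, 2 and 3 counts in WT and 4, 5 and 3 counts in Hom livers. Sall4, a zinc-finger gene of fetal liver and of liver tumors, had 0, 0 and 1 counts in WT and 0, 0 and 2 counts in Hom livers. Differences in these genes were not detectable at this depth.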
